A study of Caenorhabditis elegans with 2 samples.

Results

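The genes tts-1 and rpr-1 of Caenorhabditis elegans encode noncoding RNAs, and the chromatin around them was among the most strongly recovered with the nuclear pore protein MEL-28. They are 2 of the 46926 genes in the Ensembl WBcel235 annotation, and every peak summit within 1000 bp of either gene body was taken from the deposited ce11 peak lists. The assay was ChIP-seq, the sequencing of DNA that co-purifies with an immunoprecipitated protein, on 2 biological replicates of 1 group, so no conditions were compared. The group was strain OP646, genotype unc-119(tm4063) III; wgIs646, in which a transgene expresses MEL-28 with a GFP-FLAG tag at its C-terminus, and chromatin was immunoprecipitated with an anti-GFP antibody. The animals were whole young adults of mixed sex, collected 64 h after synchronisation as starved L1 larvae. Whole animals mix all tissues, and the promoter that drives the transgene is not given in the sources used here. Both genes were selected on the peak signal values of these same lists, so their signals, ranks and replicate values are described below and were not tested. The pooled list was deposited as peaks together with background, before the reproducibility cut. A summit or peak named from it below can therefore be background unless it is also in the reproducible list.

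MEL-28 is the worm relative of ELYS, a protein that binds chromatin and is needed to build nuclear pores and for chromosome segregation. The RNA of tts-1 (transcribed telomere-like sequences) is a long noncoding RNA without a known protein product. In this worm it has been reported to be abundant in long-lived daf-2 and clk-1 mutants, to associate with ribosomes and to be needed for their full lifespan. The RNA of rpr-1 is the catalytic RNA of RNase P, the enzyme that trims the 5′ leader from precursor tRNAs. In vertebrates RNase P RNA is made by RNA polymerase III, as are the tRNAs it processes.

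The gene tts-1 (WBGene00006650) lies on chromosome X, minus strand, 1504131 to 1504841 in ce11, and is 711 bp long. One annotated transcript has 2 exons of 367 and 292 bp, and the other is a single exon of 711 bp. Its peaks fell at 3 places, and the reference sequence (RefSeq, WBcel235) of each is given 5′ to 3′ on the transcribed strand, because the places differ in kind. The first is the 300 bp around the strongest pooled summit (chrX:1503827-1504126), past the 3′ end of the gene, and its capitals mark the 11 bases centred on the replicate 1, pooled and replicate 2 summits in that order. The second is the 300 bp around the weaker summit in the first exon (chrX:1504529-1504828), and its capitals mark the letters GCCTAA, the reverse complement of the worm telomere repeat unit TTAGGC. The third runs from 150 bp upstream to 50 bp inside the 5′ end (chrX:1504792-1504991), and its capitals mark TATAAA. It holds the upstream summit (1504970) but is not centred on it. The values given below for the upstream window are for chrX:1504820-1505119.
3′ summit window: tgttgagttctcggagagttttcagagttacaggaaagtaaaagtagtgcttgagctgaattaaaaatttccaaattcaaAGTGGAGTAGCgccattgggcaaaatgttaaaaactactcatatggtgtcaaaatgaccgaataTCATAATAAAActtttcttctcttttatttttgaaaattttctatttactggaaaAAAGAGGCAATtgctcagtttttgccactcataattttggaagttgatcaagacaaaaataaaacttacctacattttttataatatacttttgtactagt
Exon 1 summit window: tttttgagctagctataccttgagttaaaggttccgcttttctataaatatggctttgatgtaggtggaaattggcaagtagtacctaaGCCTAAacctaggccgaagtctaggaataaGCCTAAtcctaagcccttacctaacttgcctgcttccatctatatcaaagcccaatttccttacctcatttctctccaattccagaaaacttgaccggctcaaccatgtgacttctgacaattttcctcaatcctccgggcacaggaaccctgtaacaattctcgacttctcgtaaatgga
5′ end: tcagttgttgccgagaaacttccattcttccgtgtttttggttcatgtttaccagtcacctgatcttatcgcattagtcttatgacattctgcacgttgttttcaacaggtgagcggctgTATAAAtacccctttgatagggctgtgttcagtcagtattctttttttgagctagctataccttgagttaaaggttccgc

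The strongest summit at tts-1 was not in the gene but past its 3′ end. In the pooled list it lay at position 1503977, 154 bp beyond the last annotated base, with a signal of 296.5. Its interval of 705 bp (1503530 to 1504234) overlapped the gene by 104 bp, while the median peak of that list was 430 bp wide. No annotated gene covered the summit, which lay between tts-1 and the protein-coding gene F09E10.1. The genes tts-1 and F09E10.1 are 853 bp apart and face each other with their 3′ ends.

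The replicates placed this summit on the same side of the gene. In replicate 1 the signal was 165.6, with the summit 90 bp past the 3′ end. In replicate 2 the signal was 127.3, with the summit 209 bp past the 3′ end, and a second summit of 46.7 was listed 9 bp past it. Along the gene the replicate 1 summit lay 64 bp before the pooled one and the replicate 2 summit 55 bp after it, so the place beyond the 3′ end was shared but the exact base was not.

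Weaker summits marked the 5′ part of tts-1. In the pooled list a summit of signal 85.3 lay in exon 1, 162 bp inside the annotated 5′ end. Replicate 1 had a summit of 36.5 at 157 bp and replicate 2 a summit of 58.3 at 100 bp, so both replicates held one in the first exon. The signal of the 3′ summit was 3.48 times that of the next summit in the pooled list, 4.53 times in replicate 1 and 2.18 times in replicate 2. The weakest pooled summit, of 57.1, lay 129 bp upstream of the 5′ end, inside the ncRNA gene F09E10.14. Replicate 1 had it at 120 bp upstream with a signal of 30.0, and replicate 2 had no separate summit there.

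Only the 3′ summit of tts-1 was in the reproducible list, which the depositors thresholded by IDR (irreproducible discovery rate). The lowest nuclear signal in that list was 92.65 and the highest pooled signal left out was 92.61. The exon 1 summit, ranked 517 of 17025, fell below this level. Just outside the 1000 bp limit, replicate 1 had a summit of 33.8 in F09E10.1, 1080 bp from tts-1, and the nearest pooled one (34.1) was 1380 bp away on the upstream side.

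The gene rpr-1 (WBGene00045238) lies on chromosome I, plus strand, 13463955 to 13464207 in ce11, as a single exon of 253 bp. It sits inside the protein-coding gene ints-8, which encodes a subunit of the Integrator complex and is transcribed from the opposite strand. In both ints-8 transcripts the host intron spans 2023 bp (13462739 to 13464761), and 0 exons of ints-8 overlap rpr-1. The nearest ints-8 exons are 1216 and 554 bp away.

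The summit at rpr-1 fell on the annotated 5′ end of the gene. In the pooled list it was at 13463955, the first base of rpr-1, with a signal of 250.5 in an interval of 238 bp (13463813 to 13464050). Replicate 1 had a signal of 132.9 with its summit 5 bp upstream of the gene, and replicate 2 a signal of 126.6 with its summit 15 bp upstream. The replicate summits were 10 bp apart, closer than at tts-1, with 1 pair of replicates behind each distance. Replicate 2 listed a second summit of 35.9 inside the gene, 185 bp from the 5′ end, and neither replicate 1 nor the pooled list had it. The next pooled summit outside the 1000 bp limit was 2098 bp away with a signal of 52.2.

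**Figure D1:**
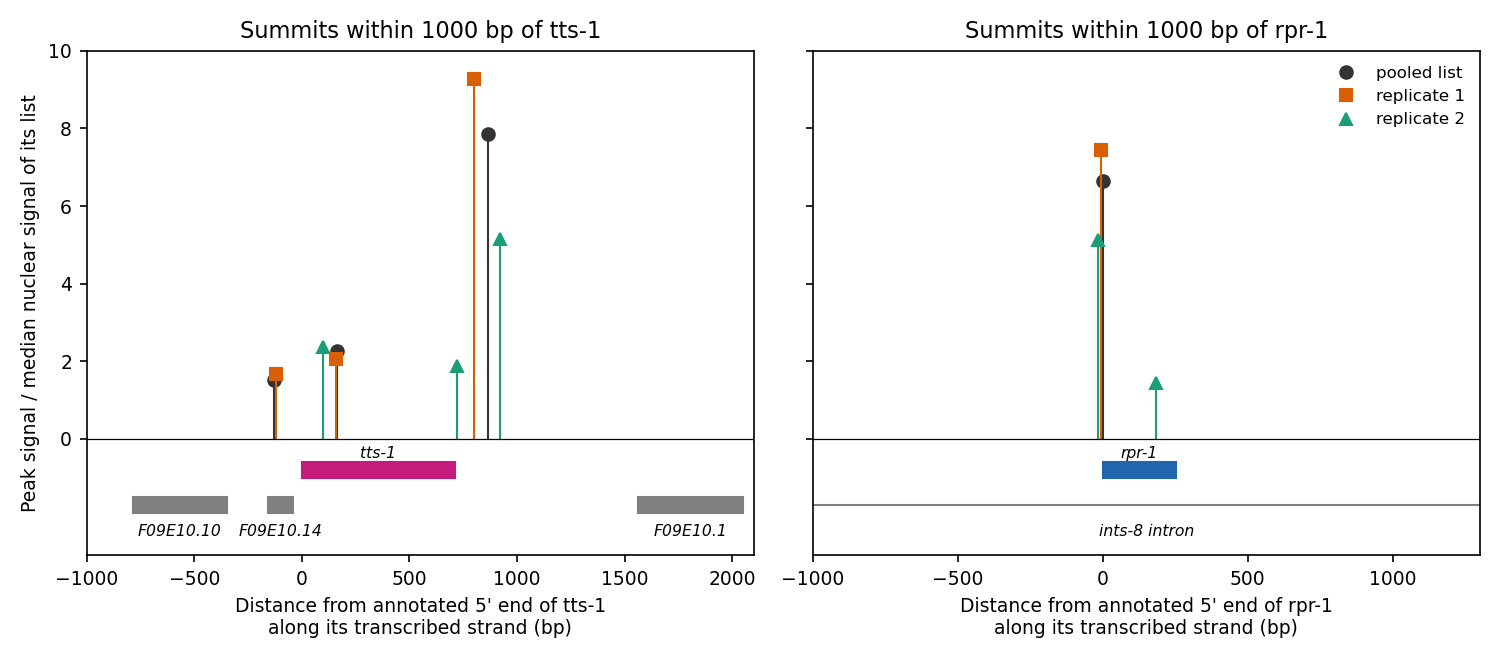
Summits within 1000 bp of tts-1 (left) and rpr-1 (right), by distance in bp from the annotated 5′ end along the transcribed strand; the height is the peak signal divided by the median nuclear signal of its list, for the pooled list (circles), replicate 1 (squares) and replicate 2 (triangles), and bars below show annotated genes. The tallest stems stand past the 3′ end of tts-1 and on the 5′ end of rpr-1.

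The host gene had a peak of its own. A reproducible summit of signal 103.2 lay 106 bp upstream of the 5′ end of ints-8, 6522 bp from the rpr-1 summit, and ranked 279 of 389. Replicate 1 had a summit of 51.6 at 105 bp upstream and replicate 2 one of 40.5 at 120 bp upstream. A summit further upstream had a signal of 58.0 in the pooled list, 763 bp from the 5′ end, and of 47.5 in replicate 2, at 812 bp. The rpr-1 signal was 2.43 times the strongest of these summits in the pooled list, 2.58 times in replicate 1 and 2.67 times in replicate 2. The intronic rpr-1 peak was thus higher than the peaks at the 5′ end of its host in every list.

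Because the scale of the signal is not given in the sources used here, each value was also divided by the median nuclear signal of its own list. These medians were 37.7 for the pooled list, which includes background, 17.8 for replicate 1 and 24.7 for replicate 2. At tts-1 the strongest signal was 7.86 times the median in the pooled list, 9.28 times in replicate 1 and 5.15 times in replicate 2 (7.21 ± 2.92, SD, n = 2 replicates). At rpr-1 the ratios were 6.64 in the pooled list, 7.45 in replicate 1 and 5.12 in replicate 2 (6.29 ± 1.65, SD, n = 2). On this ratio scale the difference between the mean values of the genes was smaller than the SD between replicates of either. On the deposited signals this held for tts-1 (165.6 and 127.3 in replicates 1 and 2) but not for rpr-1 (132.9 and 126.6). The spread of the rpr-1 ratios thus came mostly from the differing medians of the replicate lists. In each replicate tts-1 had the higher signal.

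Both genes stayed near the top of every list. Among all peaks, mitochondrial ones included, tts-1 ranked 26 of 17025 in the pooled list, 19 of 23790 in replicate 1 and 40 of 19598 in replicate 2. The ranks of rpr-1 were 34, 26 and 41. Among nuclear peaks tts-1 ranked 7, 4 and 19, and rpr-1 ranked 15, 10 and 20. The order tts-1 above rpr-1 held in all 3 lists, but in replicate 2 the genes were neighbours in rank, with signals of 127.3 and 126.6.

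**Figure D2:**
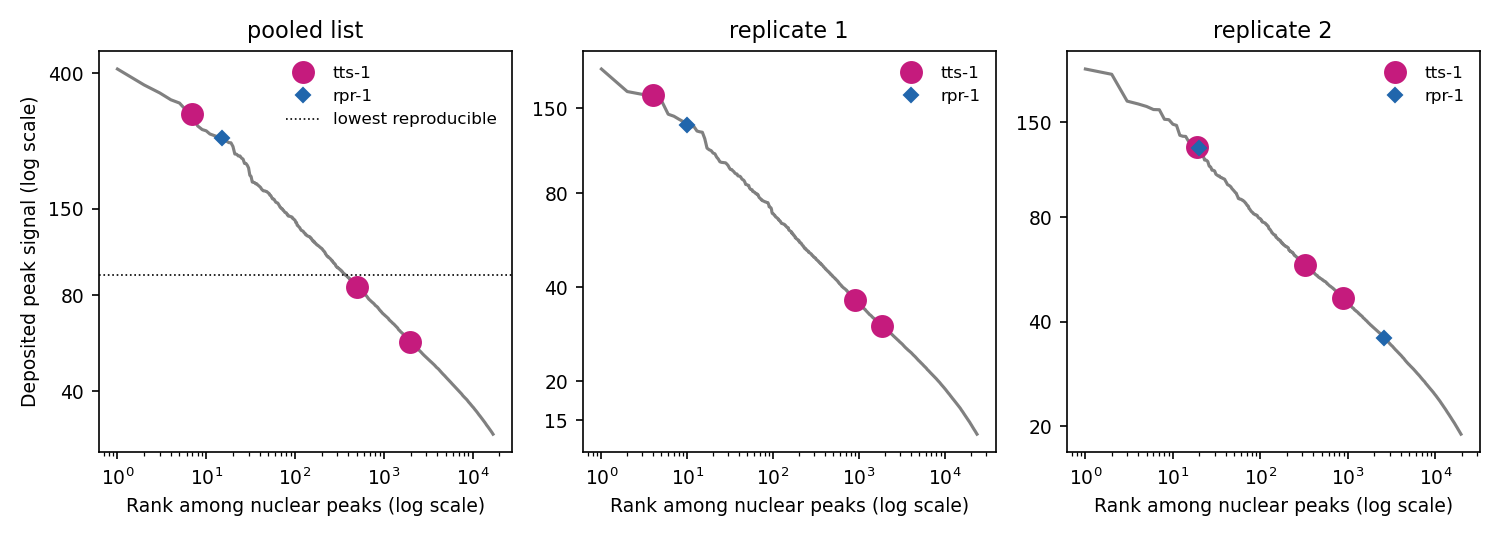
Deposited peak signal against rank among nuclear peaks, both on log scales, in the pooled list and in each replicate; the grey line is every nuclear peak, large circles are tts-1 summits, small diamonds are rpr-1 summits, and the dotted line is the lowest nuclear signal of the reproducible list, 92.65. The strongest summit of each gene sits at nuclear rank 20 or higher up in each panel, and the weaker summits lie at nuclear rank 323 or lower down.

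Replicate signals were then compared across the reproducible nuclear peaks, of which 366 of 369 overlapped a peak in both replicates. Reproducible peaks that overlap the same replicate peak were counted once here. Peaks higher than tts-1 in both replicates numbered 3, and peaks higher than rpr-1 in both numbered 8. For replicate 1 alone 3 peaks exceeded tts-1 and 9 exceeded rpr-1, and for replicate 2 alone the numbers were 18 and 19. The ratio of replicate 2 to replicate 1 signal was 0.769 at tts-1 and 0.952 at rpr-1, with a median of 1.15 and a 10 to 90% range of 0.687 to 1.90 over these peaks. Both genes therefore leaned towards replicate 1 but stayed inside the range of most peaks.

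The peaks most like each gene were those with the closest pair of replicate signals, measured as the distance on the log2 scale over the 2 replicates. For tts-1 the closest was the peak near rpl-15, a ribosomal protein gene (158.8 and 153.0 in replicates 1 and 2, distance 0.27). Next came the peak near cox-5A, a cytochrome oxidase subunit gene (distance 0.29), rpr-1 itself (0.32), cutl-18 (0.32) and F58G1.7 (0.36). For rpr-1 the closest was cox-5A (135.8 and 131.4, distance 0.06). It was followed by the snRNA gene R07E5.16 (0.08), dhc-4, whose peak overlaps that of R07E5.16 and takes the same replicate peaks (0.08), F58G1.7 (0.12) and Y17G9B.5 (0.15). With 2 points a peak, this likeness describes height alone.

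**Figure D3:**
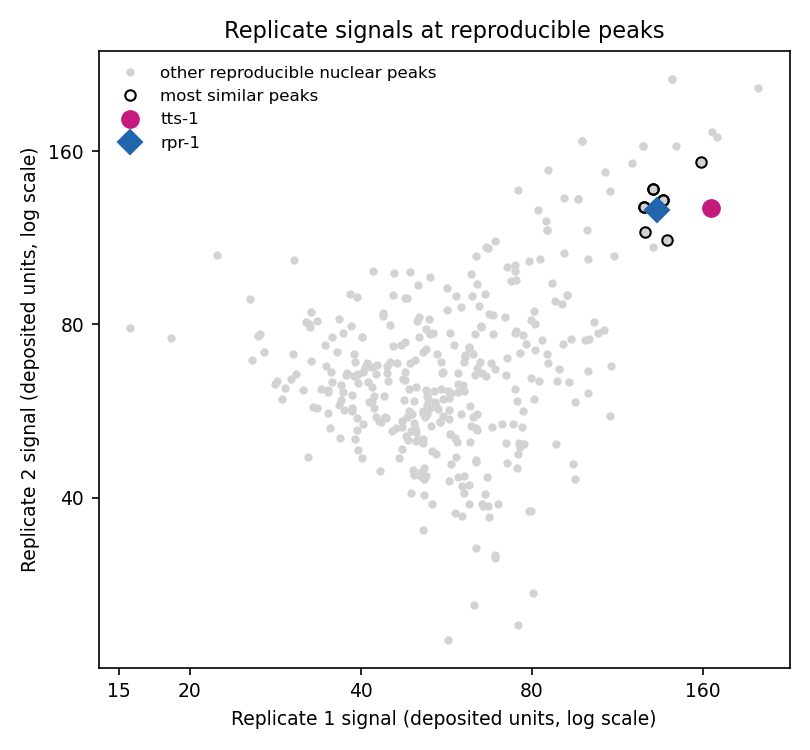
Signal of the strongest overlapping peak in replicate 1 (x axis) and replicate 2 (y axis), both in deposited units on log scales, at the reproducible nuclear peaks; grey points are other peaks, open circles the peaks most similar to either gene, the large filled circle tts-1 and the diamond rpr-1. Both genes lie at the upper right, with 3 distinct pairs of values above tts-1 and 8 above rpr-1 in both replicates.

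A reproducible summit within 1000 bp was present at both genes, 2 of 2, which is how they were chosen. Of all 7764 nuclear genes that Ensembl classes as ncRNA, the class of both, 148 had one (1.91%, exact 95% interval 1.61 to 2.24%). These came from 109 distinct summits. The interval treats the genes as independent, which genes that share a summit are not, so it can be too narrow. The share was 1.36% of 24789 noncoding genes of any class, 3.13% of the 9426 that are not piRNA genes, and 2.43% of 19973 protein-coding genes.

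Within the ncRNA class, 2873 genes had a pooled summit within 1000 bp, with a median strongest signal of 40.5. The pooled list includes background, so this is not a count of genes with a MEL-28 peak. Of these, 2 genes had a stronger summit within 1000 bp than tts-1, namely ZK994.10 (411.9) and R12E2.18 (366.9). The summit counted for ZK994.10, at 8500552 on chromosome V, lay outside that gene (8499552 to 8499638). The neighbour F09E10.14 had the same value as tts-1 because the same summit is within 1000 bp of it. Above rpr-1 were 16 genes with 7 distinct summits. Median strongest signals were 54.5 for 226 snoRNA genes, 46.8 for 66 snRNA genes and 58.6 for 461 tRNA genes with a pooled summit. Above tts-1 were 5 snoRNA genes from 3 summits, 1 snRNA gene and 1 tRNA gene, and above rpr-1 were 5 snoRNA genes, 5 snRNA genes and 1 tRNA gene. The classes share summits, so these counts are not separate. The highest value was 411.9 for ncRNA, snoRNA, tRNA and protein-coding genes alike, and 366.9 for snRNA genes.

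**Figure D4:**
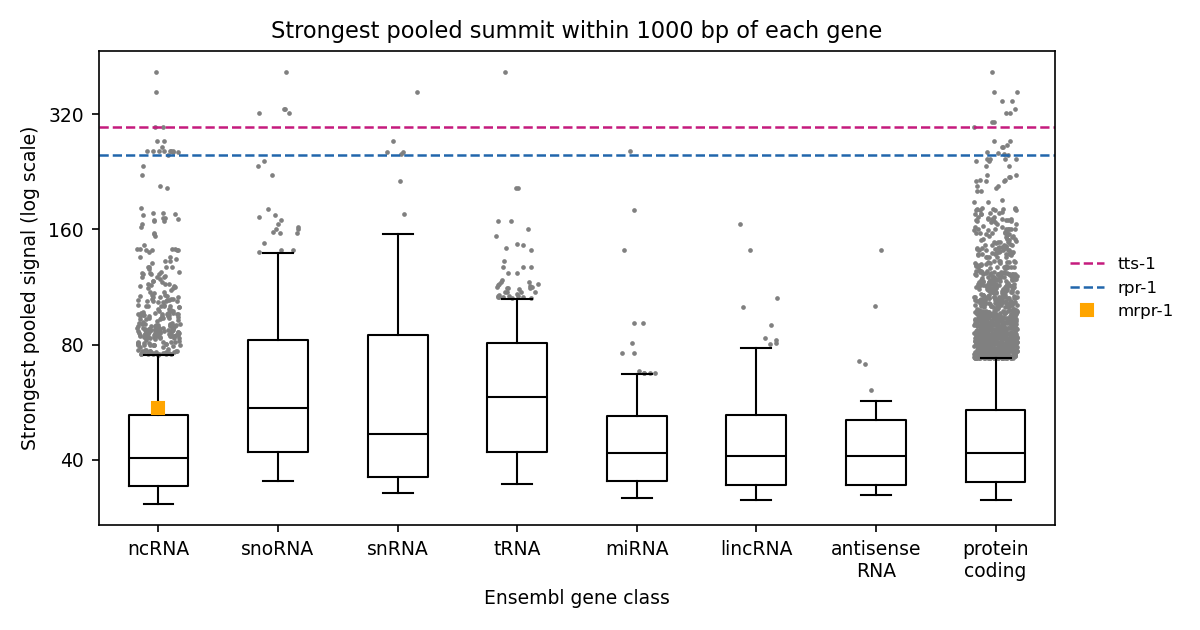
Strongest pooled signal (log scale) within 1000 bp of each nuclear gene, for genes with any pooled summit, by Ensembl class; boxes show the quartiles and median, whiskers the 10th and 90th percentiles, grey points the genes above the 90th percentile, dashed lines tts-1 (296.5) and rpr-1 (250.5), and the square mrpr-1 (54.8). Both lines run above the 90th percentile of every class.

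Along their genes the strongest summits of tts-1 and rpr-1 took different places, and each place was shared with other genes. Of the 148 ncRNA genes with a reproducible summit, the strongest one lay downstream of the gene at 58, inside at 47 and upstream at 43. It was within 25 bp of the 5′ end, as at rpr-1, at 11 of the 148 ncRNA genes, 11 of 51 snoRNA genes, 19 of 73 tRNA genes, 1 of 14 snRNA genes and 12 of 486 protein-coding genes. It lay downstream, as at tts-1, at 3 of the 51 snoRNA, 13 of the 73 tRNA, 5 of the 14 snRNA and 145 of the 486 protein-coding genes. Many ncRNA genes lie close to other genes, so a summit can be counted for more than 1 gene.

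The sequences under the peaks differed in base composition. The 300 bp around the 3′ summit of tts-1 were 30.0% G and C, a value that 2.17% of the 369 reproducible windows matched or fell below. The 300 bp around the rpr-1 summit were 56.3% G and C, at or above 96.5% of those windows, whose median was 42.3%. The exon 1 window of tts-1 had 42.3% and the upstream window 47.0%. The 2 strong peaks thus sat near opposite ends of the composition range of the reproducible set.

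The 3′ peak of tts-1 also stood in repeated sequence. In the reference, 78.3% of its 300 bp were soft-masked as repeat, against a median of 22.0% over reproducible windows, and 11 of 369 were masked at least as much. The share was 14.7% in the exon 1 window and 0% in the rpr-1 window. A BLAST search found 1691 other places in the genome similar to the tts-1 3′ window, where the median reproducible window had 1. Of the 369 windows, 14 had at least as many. Both the 11 and the 14 include the tts-1 window itself. The longest other match of that window was 268 bp at 73.5% identity. None (0) reached 100 bp at 90% identity, while 57 of the 369 windows had such a copy. The 300 bp around the rpr-1 summit had 4 other matches, the longest of 59 bp at 79.7% identity. Over the gene bodies, tts-1 had 1198 other matches, the longest of 139 bp at 69.1% identity, and rpr-1 had 0. How the aligner treated reads from repeats is not given in the sources used here, and the part of repeats in the tts-1 signal was not tested.

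**Figure D5:**
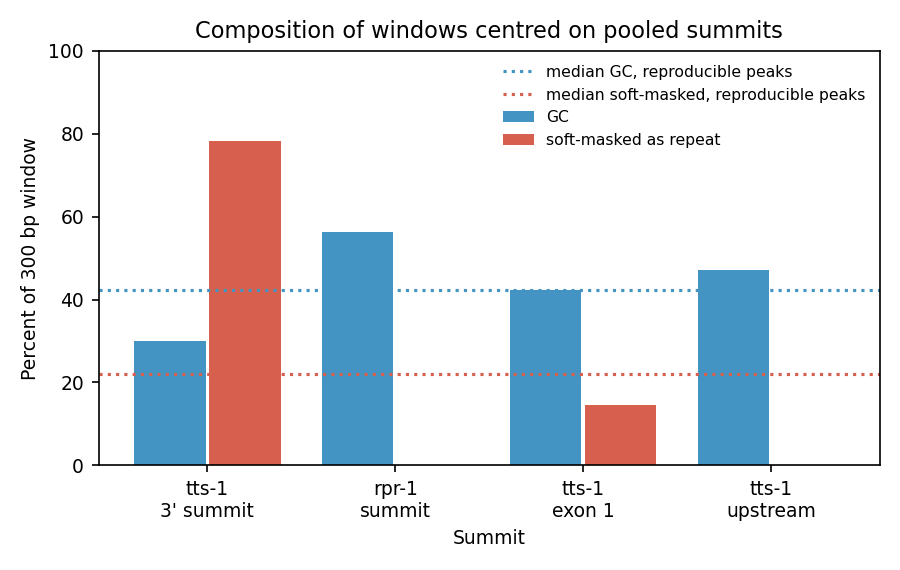
Percent G and C and percent soft-masked bases in the 300 bp around 4 pooled summits (the 3′ summit of tts-1, the rpr-1 summit, and the exon 1 and upstream summits of tts-1), with dotted lines at the medians of the 369 reproducible windows, 42.3% and 22.0%. The tts-1 3′ window is low in G and C and mostly soft-masked, and the rpr-1 window is the reverse.

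Short motifs were searched on both strands. TTAGGC was found 2 times in the exon 1 window of tts-1, printed above as GCCTAA, and 0 times at its 3′ summit, at its upstream summit or at rpr-1. Of all reproducible windows 6.23% held it, and of all 17005 nuclear pooled windows 7.62%. The whole 711 bp of tts-1 held the same 2 matches, and 16.2% of pooled windows of that length held at least 1. The telomere-like letters of tts-1 thus lay under its weaker exon 1 summit and not under its strongest one.

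Upstream of tts-1, TATAAA began 30 bp before the annotated 5′ end on the transcribed strand, as marked in the 5′ end sequence. Over windows from 150 bp upstream to 50 bp inside each gene, 28.5% of protein-coding and 16.4% of ncRNA genes held TATAAA on either strand. On the transcribed strand and starting 35 to 25 bp upstream, 2.99% and 0.747% did. TATAAA was also found 1 time in the exon 1 window, on the transcribed strand 55 bp inside the gene, 1 time in the 3′ window and 0 times in the rpr-1 window, and 24.1% of reproducible 300 bp windows held it. GGTTCGA is the core of box B, an internal promoter element of tRNA genes that works together with box A. The rpr-1 window held 0 matches to it, to box A, to TTAGGC or to runs of TTTTT, and 1 match to GAGAGA, 26 bp inside the gene. That window ended at 13464104, so the rest of rpr-1, to 13464207, and its 3′ flank were not searched. Of reproducible windows, 90.5% held TTTTT and 13.8% held GGTTCGA, while 38.8% held box A and 37.1% held GAGAGA. The 3′ window of tts-1 matched TTTTT 9 times, overlapping matches included, and box A 1 time. A match or its lack describes these letters in these windows and shows no binding.

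The gene for the RNA most closely related to rpr-1 in function had only a weak summit, also near its 5′ end in the pooled list. The gene mrpr-1 encodes the RNA of RNase MRP, an enzyme related to RNase P that acts in ribosomal RNA processing. Its pooled summit lay 1 bp upstream of the annotated 5′ end (chromosome II, 7200232) with a signal of 54.8, rank 2366 of 17025, and was not in the reproducible list. Replicate 1 had a summit of 21.2 at 4 bp inside the gene and replicate 2 one of 36.9 at 77 bp inside. These signals were 1.19 and 1.49 times the medians of their lists, at ranks 6958 and 2359. The pooled list includes background, so whether MEL-28 has a peak at mrpr-1 is not shown. The rpr-1 signal was 4.57 times that of mrpr-1 in the pooled list, 6.28 times in replicate 1 and 3.43 times in replicate 2, and rpr-1 was higher in both replicates.

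Other genes of RNase P, of the related RNase MRP and of tRNA 3′ end processing were then listed. Of 6 genes for RNase P, RNase MRP and tRNA 3′ end processing, 0 had a reproducible summit within 1000 bp, and 2 had any pooled summit, where 52.4% of protein-coding and 37.0% of ncRNA genes had one. These were mrpr-1 and popl-1, which encodes a protein subunit shared by the RNase P and MRP enzymes (signal 57.2, upstream of the gene). The protein subunit genes popl-4, popl-5 and popl-7, and hoe-1, the worm relative of the tRNA 3′ end nuclease ELAC2, had none in the pooled list. Set beside the 2.43% of protein-coding genes with a reproducible summit, 0 of 6 is no result about the list.

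Of the individually named noncoding RNA genes tts-2, rncs-1, lep-5, yrn-1 and mrpr-1, 0 of 5 had a reproducible summit and 4 had a pooled one. Over all genes of the ncRNA class these shares were 1.91% and 37.0%, so the first count is no result about the list. The highest was near rncs-1, an RNA studied in worms as an inhibitor of Dicer, with a pooled signal of 63.9 (40.7 in replicate 1 and 31.9 in replicate 2). The value was 41.0 near tts-2, 31.8 near lep-5, a long noncoding RNA of developmental timing, and yrn-1, the worm Y RNA gene, had no pooled summit. For rncs-1, tts-2 and lep-5 the pooled summit lay downstream of the gene and not inside it. This list was not adjusted for gene length either.

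Lifespan genes were listed because tts-1 has been studied in long-lived mutants. Of 15, 0 had a reproducible summit within 1000 bp, against 2.43% of protein-coding genes, so this count is no result about the list. A reproducible summit of 96.3 had pdk-1 as its nearest gene but lay more than 1000 bp upstream of it. Within 1000 bp, 12 of the 15 had a pooled summit, with a median strongest signal of 56.6. Of all protein-coding genes 52.4% had a pooled summit, and their median was 41.8. The highest within 1000 bp was daf-16, the FOXO transcription factor of insulin signalling (84.2, summit inside the gene). Next were akt-2 (72.2), a kinase of that pathway, and daf-2, the insulin receptor gene (70.3). The genes clk-1, nuo-6 and sgk-1 had no pooled summit. Longer genes offer more room for a summit, and the lifespan list was not adjusted for length.

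The tagged gene itself could not serve as a check, since mel-28 had no pooled summit within 1000 bp and unc-119, the transgene marker, had one of 34.5 (rank 11112). All 4 ce11 lists ended within the reference chromosomes (0 peaks beyond an end). The lists give peaks and not reads, so the depth of each library is unknown.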

How the data were processed

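MEL-28 ChIP-seq peaks from 2 biological replicates were analysed. Per the deposited file manifests, the authors made each replicate list from its alignments and a shared control, the pooled list from the 2 sets of alignments with that control, and the reproducible list by applying IDR to these 3. The peak signal and the −log10 q-value are the authors' deposited values. No source used here names the aligner, the peak caller or the IDR threshold. The control was not analysed here. The ce10 copies were not used. The depth is unknown, and exact (Clopper-Pearson) 95% intervals cover counting of genes only.

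Summits were placed on the Ensembl release 115 annotation of the same build and counted from the annotated 5′ base (0) along the gene. Genes, lists and motifs were chosen with earlier results of these data known. The genes named are tts-1, rpr-1, their neighbours, the 5 peaks most like each, ncRNA genes above tts-1 and the listed genes. The 2 ncRNA genes above tts-1 and the TATAAA background were chosen after values were seen. No hypothesis was tested. The assignment of summits to genes was tested on simulated data. Tools were blastn 2.17.0, matplotlib 3.10.9, pandas 2.3.3, scipy 1.17.1, numpy 2.4.6 and Python 3.11.15 (blastn E-value limit 0.001 and no low-complexity filter). Alternatives were the distances, ranks, lists, thresholds and window lengths given in the closing section.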

Additional observations from a re-analysis of the deposited data

How the results depend on the processing

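Requiring a summit within 500 or 250 bp, or a peak interval over the gene, left the strongest pooled signal at both genes as reported. Counting summits inside the gene body alone, a choice made after seeing the data, lowered the pooled tts-1 value to 85.3 and left the pooled rpr-1 value as it was. That pooled rpr-1 summit is on the first base of the gene. The strongest replicate summits, 5 and 15 bp upstream, would not be counted, which leaves only the 35.9 of replicate 2. Among nuclear peaks the ranks became 7 for tts-1 and 15 for rpr-1. With either replicate left out, that is in the list of the other replicate alone, the rank ran from 19 to 40 for tts-1 and from 26 to 41 for rpr-1. The summit position ran from 800 to 919 bp at tts-1 and from -15 to -5 bp at rpr-1. These ranks and positions restate the replicate values given above and are no separate check. With either replicate left out, the counts of genes with a summit ran from 299 to 347 noncoding and from 473 to 500 protein-coding genes. In the full pooled list 10466 protein-coding genes had a summit, so these counts cover only part of each replicate list. They depend on how many peaks are kept and are no separate check. With only the stronger 184 reproducible nuclear peaks, 165 noncoding and 258 protein-coding genes had a summit, by construction fewer. Within 250 bp, 304 protein-coding genes did. In a 200 bp window, 1 of the 3 motifs found at the tts-1 3′ summit was left. No paired analysis was possible because there is 1 group and no test. The depth is unknown, so the only error on a peak is the spread between 2 replicates.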

Other observations

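The deposited −log10 q-value did not separate the peaks at these genes. In the pooled list 620 peaks shared its maximum of 2.05, among them the strongest summits of tts-1 and rpr-1 and the exon 1 summit of tts-1, although only the first pair were in the reproducible list of 389. The upstream summit of tts-1 had 0.984. The nearest pooled summit outside the 1000 bp limit of tts-1, of signal 34.1, had 0.0948.

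The surroundings of the peaks also differed. Within 10000 bp of the tts-1 summit the pooled list, which includes background, held 9 other summits, led by the exon 1 summit. Their median signal was 37.2, near the 37.7 median of that list, and none was in the reproducible list. Around rpr-1 the pooled list held 4, with a median signal of 55.1, led by the reproducible ints-8 promoter peak. The median number of other summits around the 369 reproducible nuclear peaks was 5. These counts can include background.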
